A study of Mus musculus with 12 samples.

Results

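Superoxide dismutases, catalase and the main peroxide-removing enzymes were examined in left ventricular muscle of C57BL/6 mice. The 10 genes were Sod1, Sod2, Sod3, Cat, Prdx3, Prdx5, Gpx1, Gpx3, Gpx4 and Txn2, found by matching the NCBI Gene identifiers of the expression table to mouse symbols, and all 10 were present among 18079 genes. Polyadenylated RNA was sequenced for 12 mice, 3 in each of 4 groups. The DMSO+Sham group received the solvent DMSO and a sham operation. The hispidulin+Sham group received hispidulin, a plant flavonoid, at 20 mg/kg/day by intraperitoneal injection and a sham operation. The DMSO+AB and hispidulin+AB groups received the same solvent or drug and aortic banding (AB), a ligature around the descending aorta that puts the left ventricle under pressure overload. Injections began 1 day ahead of the operation, the operation was at 8 weeks of age by the sample labels, and tissue was taken 4 weeks later, at 12 weeks. The methods of the study describe male C57BL/6J mice, and all groups share that background. Banding of an aorta gives a load that can differ from mouse to mouse, and no measure of that load for single mice was used here.

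Superoxide leaks from the respiratory chain and is made by oxidases, and superoxide dismutases turn it into hydrogen peroxide. Catalase splits hydrogen peroxide inside peroxisomes, glutathione peroxidases reduce peroxides with glutathione, and peroxiredoxins reduce them with thioredoxin. Heart muscle is rich in mitochondria, where SOD2, PRDX3, PRDX5 and thioredoxin 2 act, and the glutathione and thioredoxin systems draw on NADPH.

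Of the 10 genes, 3 carry an annotated selenocysteine codon, a TGA that is read as selenocysteine and not as a stop. These are the glutathione peroxidases Gpx1, Gpx3 and Gpx4, and selenocysteine is the catalytic residue of the enzymes. The codon and its 12 coding bases on each side are shown, 5′ to 3′, with the TGA in capitals, because it is the feature that sets these members apart from the other 7. They were read from the GENCODE annotation of mouse genome GRCm38.
Gpx1: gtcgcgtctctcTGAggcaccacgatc
Gpx3: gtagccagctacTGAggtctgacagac
Gpx4: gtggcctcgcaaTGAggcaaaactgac
The Gpx1 codon is at chr9:108339451-108339453 on the plus strand, in exon 1 of 2, and is codon 47 of 201. In Gpx3 it is at chr11:54907256-54907258 on the plus strand, in exon 2 of 5, and is codon 73 of 226. In Gpx4 it is at chr10:80054737-80054739 on the plus strand, in exon 3 of 7 of the transcript read, and is codon 129 of 253. In each of these windows the next codon encodes glycine.

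Promoters were searched for 3 short motifs on both strands, from 250 bases before to 50 bases after each RefSeq start site (build GRCm38.p6). A promoter was found for 9 of the 10 genes, all but Sod3. The core of the antioxidant response element, TGACNNNGC, which is bound by NRF2, was in the window of 1 of these 9 genes, Sod1, against 14% of all genes with a promoter in the table. Sod1 encodes the copper- and zinc-dependent dismutase of the cytosol. Its match lies on the reverse strand and is shown in capitals within chr16:90220697-90220723, read on the plus strand, as it is the only match to this motif in the group.
Sod1 promoter: ccaaggtggGCGTGGTCAgactcaggc
The FoxO motif TGTTTAC was in 0 of the 9, against 4.1% of genes, and the Sp1 motif GGGCGG was in 9 of the 9, against 38.2%. A match describes the letters of the window and is not evidence of binding.

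Expression was given as FPKM, a read count divided by transcript length and library size, so levels can be set side by side between genes. The number of reads behind a value is not known from such a table, so the precision given rests on the spread between mice. The FPKM of a library summed to between 535235 and 567027, and Spearman correlations across genes between libraries of a group were 0.968 to 0.986. All 8 cardiomyocyte markers were detected in each library, with a summed FPKM of 38790 to 56360, and the 5 adipocyte markers summed to at most 4.03. Some libraries stood apart. Atrial muscle markers summed to 774 in hispidulin+Sham 3, to 172 in DMSO+AB 2 and to 91.0 in the third hispidulin+AB mouse, against at most 39.99 in the other 9. DMSO+Sham 3 had the lowest cardiomyocyte sum and the highest neutrophil sum, 64.0. Fewer cells of a type and less RNA per cell cannot be told apart in such bulk tissue.

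All 10 genes were well expressed in each mouse. By the median of 12 libraries, Gpx4 was the highest at 695 FPKM. GPX4 reduces peroxides within membrane lipids and protects cells from ferroptosis. It was followed by Prdx5 at 546, Sod1 at 463, Prdx3 at 261, Txn2 at 204, Gpx3 at 198, Sod2 at 175, Cat at 123, Gpx1 at 88.7 and Sod3 at 26.6 FPKM. The mean levels of the first 9 stood above those of 93.15% or more of the genes tested, and that of Sod3 above 78.5%. The order of neighbours was firm at 4 places, where the higher gene was above the lower one in 12 of 12 libraries and the ranges were apart. These were Gpx4 over Prdx5, Sod1 over Prdx3, Prdx3 over Txn2 and Gpx1 over Sod3. Elsewhere the ranges of neighbours overlapped, and Txn2 was above Gpx3 in 5 of 12 libraries only.

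The genes also differed in how much they varied between mice. The coefficient of variation over the 12 libraries was 6.31% for Prdx3, 6.44% for Txn2 and 7.30% for Prdx5, the 3 most even members, all of the mitochondrial thioredoxin-dependent route. It was 22.3% for Sod3, 25.4% for Gpx1 and 51.9% for Gpx3. On the log2(FPKM + 1) scale the SD was 0.09 for Prdx3 and 0.59 for Gpx3, against a median of 0.19 over all genes tested. The wide spread of Gpx3, which encodes the secreted peroxidase of plasma, came with 1 high library. DMSO+Sham 3 was at 586 FPKM and the next highest library, DMSO+AB 2, at 314.

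**Figure D1:**
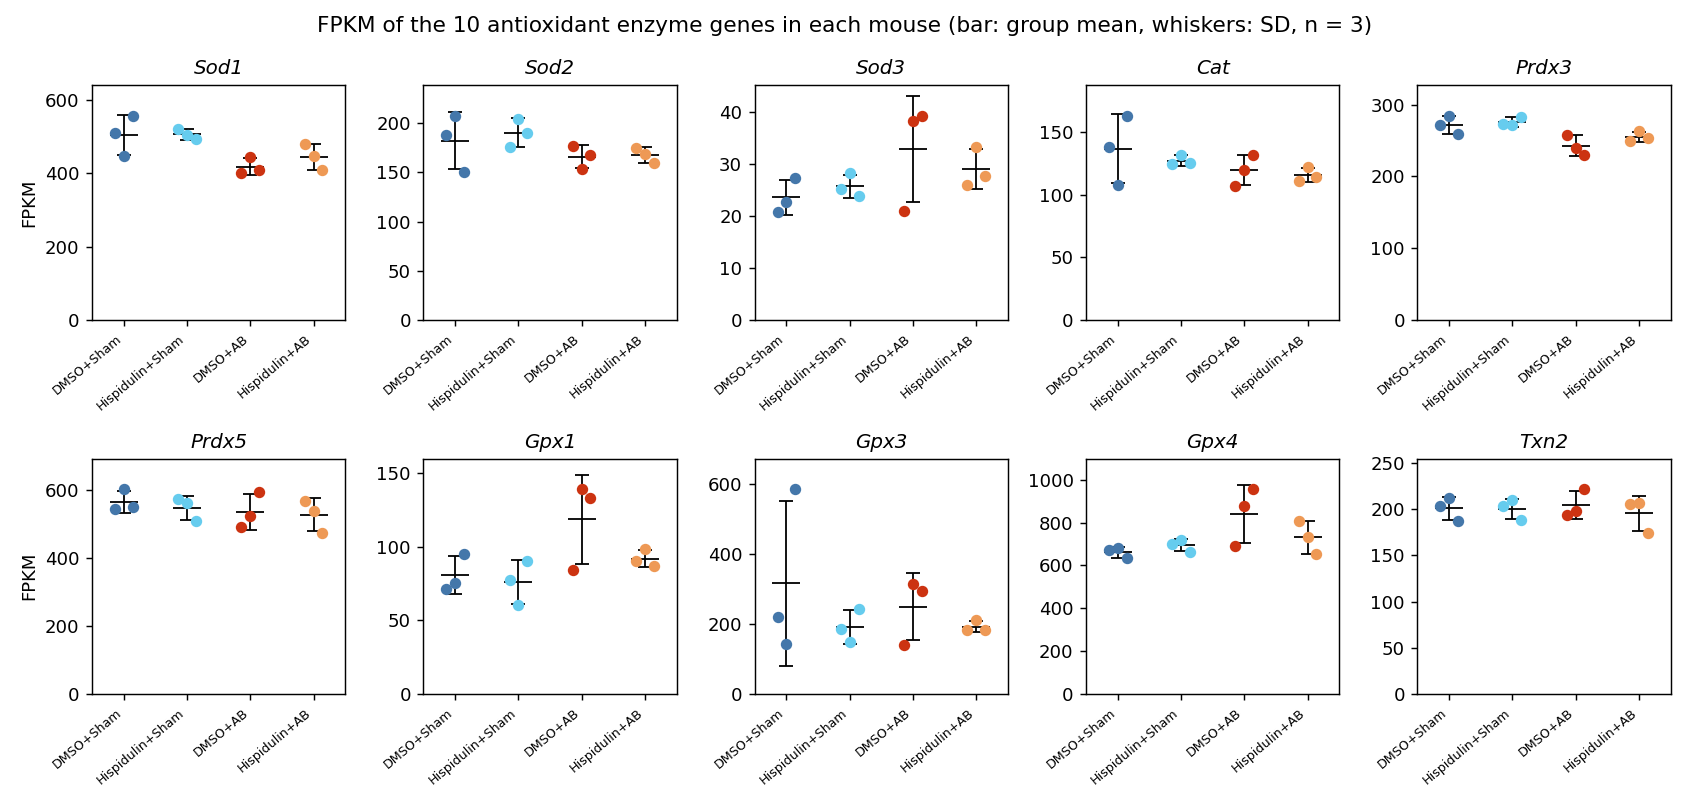
FPKM of each of the 10 genes (y axes, starting at 0) in the 4 groups; points are single mice, bars are group means and whiskers are SD (n = 3). Sod1 and Prdx3 lie lower and Gpx4 lies higher in all 3 DMSO+AB mice than in the 3 DMSO+Sham mice, and the Gpx3 point of DMSO+Sham 3 stands at 586.

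The first comparison was DMSO+AB against DMSO+Sham, which shows the change under pressure overload without the drug. With limma on log2(FPKM + 1), 0 of the 10 genes had an adjusted p under 0.05, where 5.21% of all 11664 genes tested did (608 genes). That count was 11 with only the 6 libraries compared in the model, and when 1 library was left out it was lowest at 91 (without DMSO+Sham 1) and 104 (without DMSO+AB 2) and highest at 1050 (without DMSO+Sham 2). At an unadjusted p under 0.05 there were 3 members, Sod1, Gpx1 and Gpx4, against 20.4% of all genes. In 3 members the mice of the groups did not overlap, against 17.9% of all genes. Of these, Sod1 and Prdx3 were lower after AB, as were 10.8% of all genes without overlap, and Gpx4 was higher, as were 7.18%. The median log2 difference was -0.10 over the 10 members, with 4 higher and 6 lower, and -0.03 over all genes tested.

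Among the dismutases, Sod1 was at 509, 447 and 557 FPKM in the DMSO+Sham mice and at 402, 443 and 410.0 in the DMSO+AB mice. Each banded mouse was below each sham mouse. The group means were 504 ± 55.3 and 418 ± 22.0 FPKM (SD, n = 3), a log2 difference of -0.26 ± 0.10 (SE), or 0.832-fold with a 95% interval of 0.718 to 0.965, and the adjusted p from limma was 0.150. The call on Sod1 depended on 1 library, since without DMSO+Sham 2, its lowest sham mouse, the difference was -0.35 with an adjusted p of 0.0493. In that fit 1050 of all genes passed. Sod2 encodes the manganese enzyme of the mitochondrial matrix. It was at 188, 208 and 151 FPKM in DMSO+Sham and at 177, 154 and 168 in DMSO+AB. The groups overlapped, and the log2 difference was -0.12 with an interval of -0.38 to 0.13. It was -0.25 without DMSO+Sham 3 and -0.02 without DMSO+Sham 2. Sod3 encodes the enzyme of the extracellular space. It was at 20.7, 22.8 and 27.3 FPKM in DMSO+Sham and at 21.0, 38.3 and 39.3 in DMSO+AB. Banded mice 2 and 3 were above all sham mice and banded mouse 1 was among them. The log2 difference was 0.42 ± 0.21 (SE), with an adjusted p of 0.275.

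Catalase was at 139, 108 and 163 FPKM in DMSO+Sham and at 107, 119.96 and 132 in DMSO+AB. The groups overlapped widely, the log2 difference was -0.18 with an interval of -0.47 to 0.12, and the adjusted p from limma was 0.498. Without DMSO+Sham 2 the difference was -0.33 and without DMSO+Sham 3 it was -0.04. Gpx1 encodes the glutathione peroxidase of cytosol and mitochondria. It was at 71.1, 75.2 and 95.4 FPKM in DMSO+Sham and at 84.1, 139 and 133 in DMSO+AB. As for Sod3, banded mice 2 and 3 were above all sham mice, and banded mouse 1 lay within the sham range. Its log2 difference of 0.53 ± 0.20 (SE) was the largest of the 10 in this comparison, 1.45-fold with an interval of 1.07 to 1.95, and its adjusted p was 0.150. With limma's library weights the difference was 0.69 and the adjusted p 0.0367, where 1423 of all 11664 genes passed. Gpx4 was at 674, 679.7 and 633 FPKM in DMSO+Sham and at 690.5, 876 and 956 in DMSO+AB. All 3 banded mice were above the sham mice, though banded mouse 1 by little. The log2 difference was 0.33 ± 0.12 (SE), 1.26-fold with an interval of 1.05 to 1.51, and the adjusted p was 0.140. Gpx3 was at 221, 142 and 586 FPKM in DMSO+Sham and at 139.7, 314 and 295 in DMSO+AB. The groups overlapped, and the log2 difference of -0.17 had an interval of -1.12 to 0.78. It was 0.41 without DMSO+Sham 3 and -0.61 without DMSO+Sham 2, so neither its sign nor its size was fixed by these mice.

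In the mitochondrial thioredoxin route, Prdx3, the matrix peroxiredoxin, was at 272, 285 and 259 FPKM in DMSO+Sham and at 258, 239.7 and 230.35 in DMSO+AB. The highest banded mouse was just under the lowest sham mouse. The log2 difference was -0.16 ± 0.08 (SE), 0.893-fold with an interval of 0.793 to 1.00, and the adjusted p from limma was 0.263. Prdx5, found in mitochondria, peroxisomes and cytosol, was at 542, 601 and 549 FPKM in DMSO+Sham and at 491, 522 and 594 in DMSO+AB. Txn2, the thioredoxin that reduces these peroxiredoxins, was at 204, 212 and 187 FPKM in DMSO+Sham and at 194, 198 and 222 in DMSO+AB. Both genes overlapped between the groups. Their log2 differences were -0.08 (interval -0.30 to 0.14) and 0.03 (interval -0.19 to 0.24), so for Txn2 a change of more than 1.18-fold upward or below 0.878-fold lies outside the interval.

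**Figure D2:**
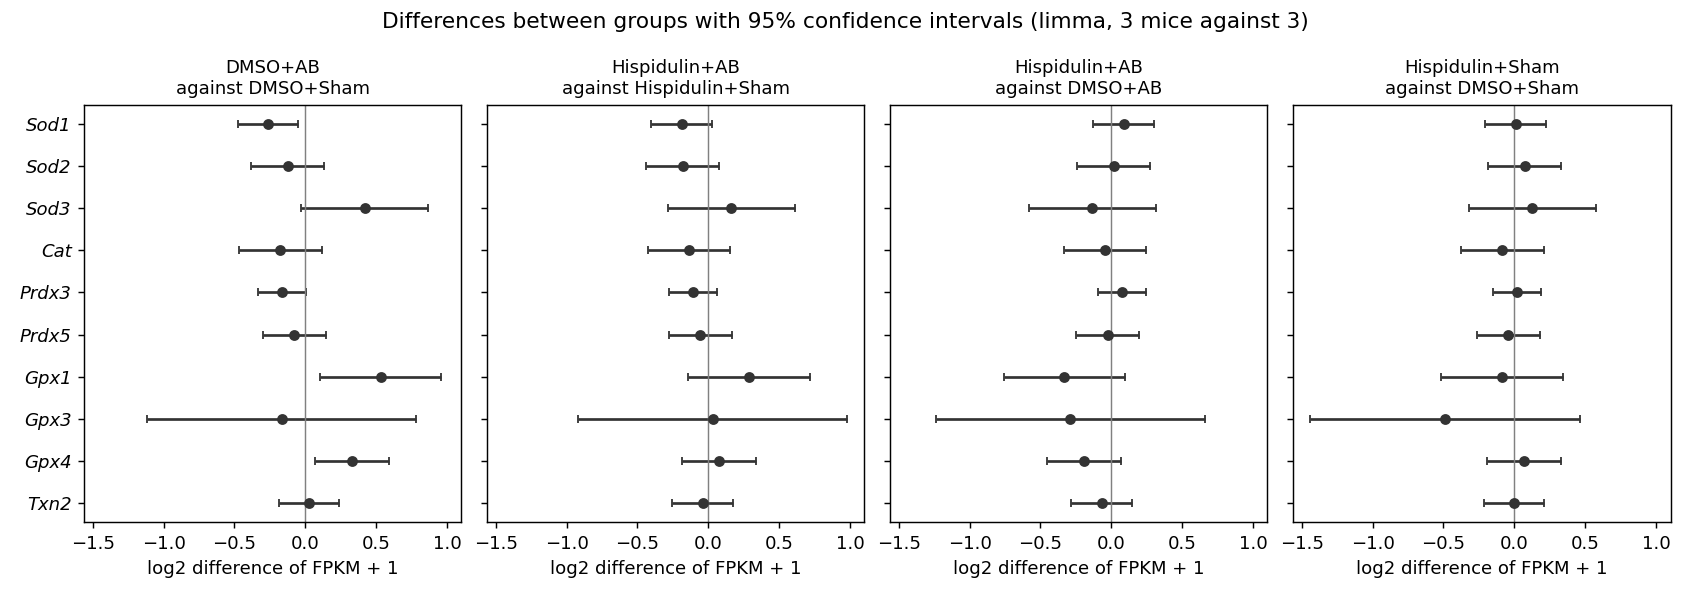
Log2 differences of FPKM + 1 from limma (x axis) for the 10 genes (y axis) in 4 comparisons of 3 mice against 3; points are estimates and bars are 95% confidence intervals without adjustment for the number of genes. Between DMSO+AB and DMSO+Sham the intervals of Sod1, Gpx1 and Gpx4 leave out 0, and in the other 3 panels every interval holds 0.

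Values differed between the banded mice. DMSO+AB 2 and DMSO+AB 3 were the 2 highest of all 12 libraries for Sod3, Gpx1 and Gpx4, while DMSO+AB 1 was lower than both for each of these genes. Without DMSO+AB 1, all 3 genes passed in limma, with log2 differences of 0.70 for Sod3 (adjusted p = 0.0134), 0.76 for Gpx1 (adjusted p = 0.0207) and 0.47 for Gpx4 (adjusted p = 0.0204), where 953 of all 11664 genes passed. There is no label by which that mouse would be left out, and the count over all 3 mice per group remains 0. Fibroblast markers moved in the same libraries. Their summed FPKM was 369 in DMSO+AB 1, 876 in DMSO+AB 2 and 583 in DMSO+AB 3, against 331 to 399.7 in DMSO+Sham. All 6 fibroblast markers were higher after AB and 3 passed (Col1a1, Col1a2 and Postn). Endothelial markers summed to 329.9 to 354 in DMSO+AB and to 287 to 307 in DMSO+Sham, with 0 of 6 passing. Of the 8 cardiomyocyte markers 6 were lower and 2 passed (Ryr2 and Pln). All 4 neutrophil markers were lower (median log2 difference -0.62) and all 5 red cell markers tested were higher (median 0.28). Of 4 smooth muscle markers 3 were higher, with 1 of the 4 at an unadjusted p under 0.05. Among neutrophil, red cell and smooth muscle markers 0 passed. The part of cell composition in the values of Sod3, Gpx1 and Gpx4 was not tested.

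**Figure D3:**
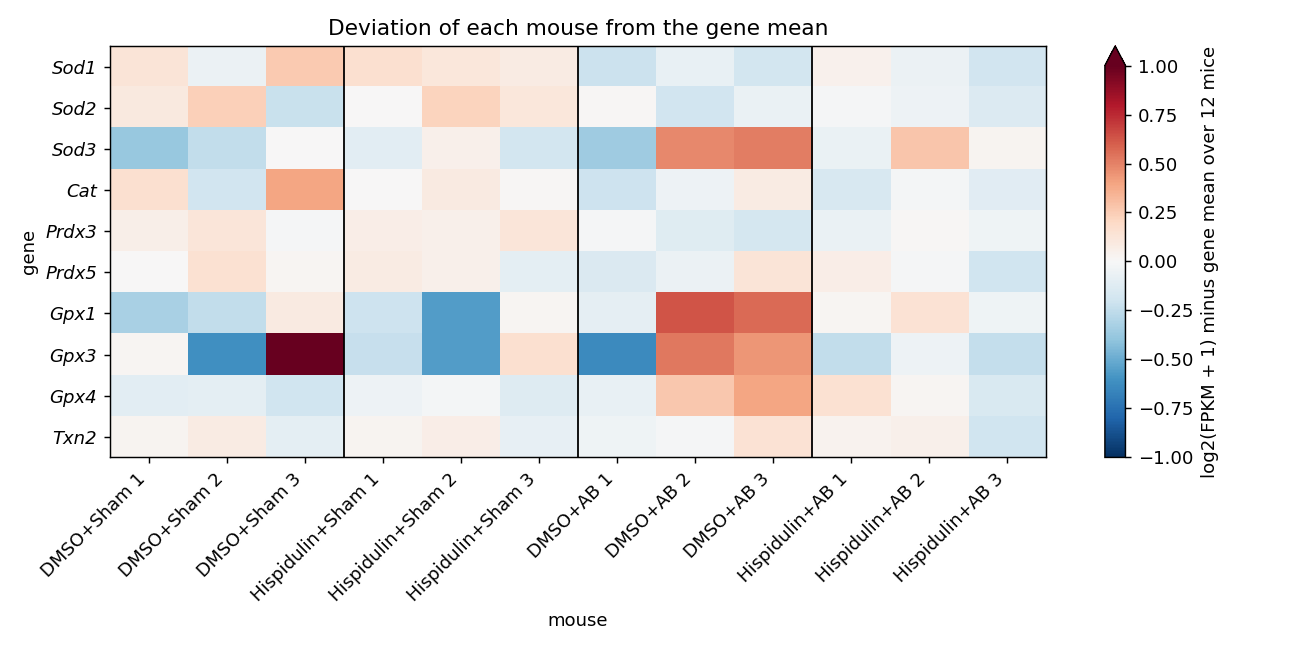
Deviation of log2(FPKM + 1) in each of the 12 mice (x axis) from the mean of the gene (y axis), red for higher and blue for lower, with the colour scale ending at 1; lines separate the groups. The darkest cell is Gpx3 in DMSO+Sham 3, at 1.43, and Sod3 and Gpx1 are 0.48 to 0.63 above their means in DMSO+AB 2 and 3.

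The sample descriptions carry numbers that fall in a 52 series and a 67 series, whose meaning is not given, and 1 DMSO+Sham mouse has a number in neither. Within the 52 series, with 1 mouse against 1, and within the 67 series, with 2 against 1, the log2 differences under AB were -0.12 and -0.40 for Sod1, -0.30 and -0.06 for Prdx3, 0.81 and 0.18 for Gpx1, 0.49 and 0.30 for Gpx4, and 0.76 and 0.06 for Sod3. Those 5 genes kept 1 sign in both series, as did Prdx5, at -0.02 and -0.12, and Txn2, at 0.06 and 0.07. Gpx3 did not, at 1.05 and -1.48, and neither did Sod2, at -0.31 and 0.13, nor Cat, at 0.28 and -0.52.

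Whether hispidulin changed these enzymes in the overloaded ventricle was asked by hispidulin+AB against DMSO+AB. Again 0 of the 10 genes passed with limma, where 0% of all genes tested did, and 0 members had an unadjusted p under 0.05, against 3.1% of all genes. All adjusted p-values were 0.996 or higher. The groups overlapped in all 10 members, where 7.88% of genes did not overlap. The median log2 difference was -0.06 over the members, with 3 higher and 7 lower, and 0.00 over all genes.

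Sod1 was at 479, 448 and 408 FPKM in hispidulin+AB, a log2 difference from DMSO+AB of 0.09 with an interval of -0.13 to 0.30. Hispidulin+AB 3 was below 2 of the 3 DMSO+AB mice. Gpx1 was at 90.6, 98.8 and 86.8 FPKM, closer together than the 84.1 to 139 of DMSO+AB. Its log2 difference of -0.33 was the largest of the 10, with an interval of -0.76 to 0.10. Gpx4 was at 808, 735 and 653 FPKM, with a difference of -0.19 and an interval of -0.45 to 0.07. Sod3 was at 25.9, 33.3 and 27.7 FPKM, with a difference of -0.13 and an interval of -0.58 to 0.31. For each of these 3 genes, the drug-treated mice lay within or below the range of DMSO+AB. The same DMSO+AB mice served in the banding comparison, where these genes had higher estimates after AB. Lower values with the drug are therefore no separate evidence. In hispidulin+AB against DMSO+AB 5 of 6 fibroblast markers were lower (median log2 difference -0.41, sums of 372 to 577 FPKM against 369 to 876). All 4 neutrophil markers (median 1.22) and all 4 smooth muscle markers (median 0.39) were higher. All 5 red cell markers tested were lower (median -0.26), and 6 of 8 cardiomyocyte markers were higher (median 0.16). Of these markers 0 passed, and their part in these values was not tested. The within-series differences were -0.61 and -0.19 for Gpx1 and -0.55 and -0.01 for Gpx4, with 1 mouse against 1 in the 52 series and 2 against 2 in the 67 series. Sod3, at -0.49 and 0.05, and Sod1, at -0.01 and 0.13, turned sign between the series.

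The other 6 members overlapped between the groups as well. Cat was at 111, 122 and 114 FPKM in hispidulin+AB and differed by -0.04 (interval -0.33 to 0.25), and Sod2 was at 174, 169 and 159 FPKM and differed by 0.02 (interval -0.24 to 0.27). Gpx3 was at 183, 210.1 and 184 FPKM and differed by -0.29, with the widest interval, -1.24 to 0.66. Prdx3, at 249.7, 263 and 253 FPKM, differed by 0.07 (interval -0.10 to 0.24). Prdx5, at 568, 538 and 473 FPKM, and Txn2, at 206, 207 and 174 FPKM, differed by -0.02 (interval -0.25 to 0.20) and -0.07 (interval -0.28 to 0.15). Both had their lowest value of all 12 libraries in hispidulin+AB 3. These intervals do not show that the drug left the genes alone. For Prdx3 they leave room for 0.936-fold to 1.18-fold and for Gpx3 for 0.423-fold to 1.58-fold.

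Hispidulin+Sham against DMSO+Sham gave the effect of the drug without overload, and here 0 of 10 members passed (0% of all genes did), 0 had an unadjusted p under 0.05 (2.46% of all genes did) and 0 were without overlap (5.6% of all genes). Sod1 was at 521, 503 and 493 FPKM in hispidulin+Sham, within the range of DMSO+Sham, and differed by 0.01 on the log2 scale (interval -0.20 to 0.22). Sod2 was at 176, 205 and 190.4 FPKM, Cat at 124, 132 and 125 and Prdx3 at 273, 271 and 283, and each group overlapped its solvent control. Gpx4 was at 699.7, 718 and 663 FPKM, with 2 of 3 mice above all DMSO+Sham mice, and differed by 0.07 (interval -0.19 to 0.33). Sod3 was at 25.2, 28.2 and 23.8 FPKM, Gpx1 at 77.4, 60.35 and 90.6, Prdx5 at 574, 560.5 and 507, and Txn2 at 204, 209.9 and 189. Their log2 differences lay between -0.09 and 0.13. All 4 neutrophil markers were lower (median log2 difference -1.20, sums of 1.06 to 14.5 FPKM against 9.90 to 64.0). All 5 red cell markers tested were higher (median 0.83, 2 at an unadjusted p under 0.05). Of 6 fibroblast markers 5 were higher (median 0.29, 1 at an unadjusted p under 0.05). Of 4 smooth muscle markers 3 were higher, with 1 at an unadjusted p under 0.05. Of these markers 0 passed, and their part in these values was not tested. The largest difference of the 10 members was that of Gpx3, at 185, 147 and 244 FPKM, with -0.49 and an interval of -1.44 to 0.46. Without DMSO+Sham 3 it was 0.09.

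Hispidulin+AB against hispidulin+Sham repeated the banding contrast in drug-treated mice. With limma 0 of 10 members passed (0% of all genes did) and 0 had an unadjusted p under 0.05 (7.26% of all genes did). With the replicate block 17 of all genes passed, and still 0 members. There was no overlap in 4 members, all lower after AB, where 11.8% of all genes were lower without overlap and 20.9% did not overlap in either direction. Those 4 were Sod1 (log2 difference -0.19, interval -0.40 to 0.03), Sod2 (-0.18, interval -0.44 to 0.08), Cat (-0.13, interval -0.43 to 0.16) and Prdx3 (-0.11, interval -0.28 to 0.06). Group means fell from 506 ± 14.3 to 445 ± 35.7 FPKM for Sod1, from 190.4 ± 14.4 to 168 ± 7.66 for Sod2, from 127 ± 4.27 to 116 ± 5.84 for Cat and from 276 ± 6.60 to 255 ± 6.88 for Prdx3 (SD, n = 3), without passing the test. The exact permutation test over 3 mice against 3 gave its smallest p, 0.1, for each, which groups without overlap always give. Markers of other cell types also differed in level between these mice. Neutrophil markers summed to 1.06 to 14.5 FPKM in hispidulin+Sham and to 22.4 to 38.4 in hispidulin+AB, with 4 of 4 higher and 3 at an unadjusted p under 0.05, and all 5 red cell markers tested were lower, with a median log2 difference of -0.77. All 6 fibroblast markers were higher, with a median of 0.38 and 1 at an unadjusted p under 0.05, and 3 of 4 smooth muscle markers were higher, with 2 at an unadjusted p under 0.05. Of these 4 lists 0 markers passed. Their part in the values of the 4 members was not tested. Gpx1 differed by 0.29 (interval -0.14 to 0.72), Sod3 by 0.16, Gpx4 by 0.07, Gpx3 by 0.03, Txn2 by -0.04 and Prdx5 by -0.06.

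The interaction term asks whether the change under AB differed with the drug. It passed in 0 of 10 members (0% of all genes) and 0 had an unadjusted p under 0.05 (2.48% of all genes). The estimates were -0.26 for both Sod3 (interval -0.89 to 0.37) and Gpx4 (interval -0.63 to 0.11), -0.24 for Gpx1 (interval -0.85 to 0.36) and 0.08 for Sod1 (interval -0.23 to 0.38). The Gpx1 estimate turned to 0.06 without the 3 libraries highest in atrial markers, and that of Sod1 lay between 0.0019 and 0.16 when 1 library was left out, lowest without DMSO+Sham 3. A difference in the response of these enzymes to AB with and without hispidulin was therefore not shown, and these intervals leave room for one in either direction. The estimates also rest on the same DMSO+AB mice as the banding comparison. In the interaction all 4 neutrophil markers were higher (median 2.44, all 4 at an unadjusted p under 0.05). All 5 red cell markers tested (median -1.01) and all 6 fibroblast markers (median -0.89) were lower. Of these markers 0 passed, and their part in these values was not tested.

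Averaging the AB contrast over both treatments sets 6 banded against 6 sham mice. It was added after the data had been seen. In it 0 of 10 members passed, where 7.39% of all genes did (862 genes, and 73 without the 3 libraries highest in atrial markers), and 4 had an unadjusted p under 0.05, against 23.3% of all genes. These were Sod1 at -0.23 (interval -0.38 to -0.07, adjusted p from limma 0.0702), Prdx3 at -0.14 (interval -0.26 to -0.02, adjusted p 0.159), Gpx1 at 0.41 (interval 0.11 to 0.71, adjusted p 0.0971) and Gpx4 at 0.20 (interval 0.02 to 0.39, adjusted p 0.175). Sod2, Cat, Prdx5 and Txn2 stood at -0.15, -0.16, -0.07 and -0.01, and Sod3 at 0.29. In the same contrast 3 of 6 fibroblast markers passed as higher (Col1a1, Col1a2 and Postn, median of the 6 0.85), 2 of 8 cardiomyocyte markers as lower (Ryr2 and Pln) and 1 of 4 smooth muscle markers as higher (Tagln), and their part in the values of the members was not tested.

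The members depend on genes that reduce, supply or house them, and 58 such partner genes in 6 lists were examined, of which 56 were tested; Gpx2 and Lrp8 were too low. Between DMSO+AB and DMSO+Sham 3 of the 56 passed with limma, all lower after AB, against 5.21% of all genes called and 2.71% called lower, and 12 had an unadjusted p under 0.05, against 20.4% of all genes. Of the 4 genes of mitochondrial NADPH supply 2 were called, Nnt and Me3, with 3 lower, 1 higher and all 4 at an unadjusted p under 0.05. Nnt encodes the transhydrogenase that makes NADPH in the mitochondrial matrix. It was at 217, 195 and 195 FPKM in DMSO+Sham and at 164, 124 and 131 in DMSO+AB. The groups were apart, with a log2 difference of -0.54 ± 0.11 (SE) and an adjusted p of 0.0200. Me3, a mitochondrial malic enzyme, was at 37.6, 36.7 and 32.7 FPKM in DMSO+Sham and at 27.7, 27.0 and 26.5 in DMSO+AB. It differed by -0.38 ± 0.09 (SE), with an adjusted p of 0.0385. The others, named after their values were seen, did not pass. Me2, also a mitochondrial malic enzyme, was at 3.72, 4.04 and 5.10 FPKM in DMSO+Sham and, without overlap, at 5.30, 5.52 and 6.64 in DMSO+AB, a difference of 0.37 (adjusted p 0.139). Idh2, the mitochondrial NADP-dependent isocitrate dehydrogenase, differed by -0.34 (adjusted p 0.0813). The C57BL/6J substrain is known to carry a deletion within Nnt, and gene totals cannot show which exons were read.

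Of 20 peroxisome genes 1 was called, and 17 were lower and 3 higher, with a median log2 difference of -0.08, against 6507 lower and a median of -0.03 over all 11664 genes. Pex6 encodes an ATPase that recycles PEX5, the receptor that carries catalase and other proteins into peroxisomes. It was at 24.4, 19.1 and 25.2 FPKM in DMSO+Sham and at 15.0, 14.1 and 17.7 in DMSO+AB, a log2 difference of -0.52 ± 0.13 (SE; adjusted p from limma 0.0387). All banded mice were below all sham mice. Pex11a, which takes part in peroxisome division, had a difference of -0.37 ± 0.12 (SE) and did not pass (adjusted p 0.106). Of the 3 calls, Me3 and Pex6 were near the threshold, and 0 of the 3 passed when only the 6 libraries compared entered the model, when the number series was a covariate, without the 3 libraries highest in atrial markers, or without DMSO+Sham 1 or DMSO+AB 2. In the same comparison 6 of 8 cardiomyocyte markers were lower, with a median log2 difference of -0.27 and 2 passing, and their part in the values of Nnt, Me3 and Pex6 was not tested.

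The remaining lists had 0 calls between DMSO+AB and DMSO+Sham. Of 13 thioredoxin system genes 6 were higher and 7 lower, and the largest differences were 1.25 for Srxn1, which restores overoxidised peroxiredoxins, and -0.39 for Sesn1. Srxn1 was at 12.0, 7.72 and 25.8 FPKM in DMSO+Sham and at 67.4, 25.5 and 21.3 in DMSO+AB. Its groups overlapped, with DMSO+AB 1 the highest of 12 libraries, and its adjusted p from limma was 0.209. Of 9 glutathione system genes 6 were higher and 4 had an unadjusted p under 0.05, against 20.4% of all genes. Their largest differences were -0.41 for Gclm, a subunit of the enzyme that begins glutathione synthesis, and 0.40 for Gpx8, a peroxidase of the endoplasmic reticulum. Gclm was at 40.6 FPKM in DMSO+Sham 3 and at 10.9 to 19.4 in the other 11 libraries. All 4 copper supply genes were higher, by 0.02 to 0.24, with Atp7a at 0.24 and Atox1 at 0.21. Of 6 selenoprotein synthesis genes 3 were higher and 3 lower, with -0.27 for Selenop, the plasma carrier of selenium, and 0.18 for Pstk.

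**Figure D4:**
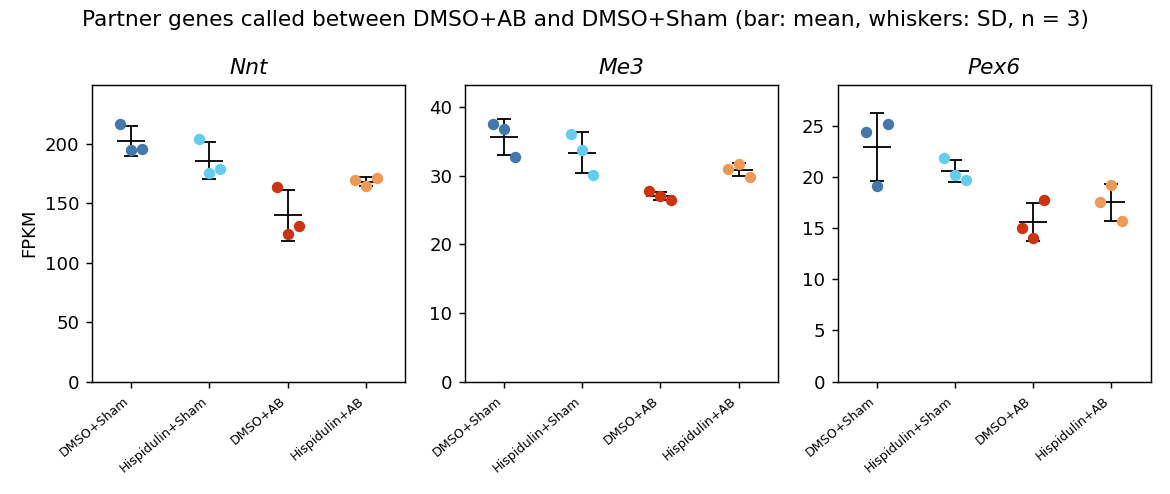
FPKM (y axes, starting at 0) of Nnt, Me3 and Pex6 in the 4 groups; points are single mice, bars are group means and whiskers are SD (n = 3). The 3 DMSO+AB mice are below the 3 DMSO+Sham mice for each gene, and hispidulin+AB mice lie above DMSO+AB mice for Nnt and Me3 without passing the test.

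With hispidulin after AB, 0 of the 56 partner genes passed with limma, as did 0% of all genes, and 3 had an unadjusted p under 0.05, against 3.1% of all genes. Nnt was at 169.55, 164 and 171 FPKM in hispidulin+AB, all above the DMSO+AB mice where 7.88% of all genes did not overlap, with a log2 difference of 0.28 (interval 0.04 to 0.52, adjusted p 0.996). Me3, at 31.0, 31.7 and 29.8 FPKM, differed by 0.18 (interval -0.02 to 0.38). Me2 went the other way, at 4.34, 3.95 and 5.33 FPKM, with a difference of -0.30 (interval -0.59 to -0.01, adjusted p 0.996) and groups that overlapped. These genes share their DMSO+AB mice with the banding comparison that selected them, so signs opposite to those under AB are no separate evidence. With hispidulin after AB, 6 of 8 cardiomyocyte markers were higher (median log2 difference 0.16), and their part in these values was not tested. Between the Sham groups and in the interaction, 0 partner genes passed (0% of all genes in both), with 0 and 1 at an unadjusted p under 0.05, against 2.46% and 2.48% of all genes. In hispidulin+AB against hispidulin+Sham 0 passed as well, with 2 at an unadjusted p under 0.05, against 7.26% of all genes, and 17 of 20 peroxisome genes were lower, as were 6399 of all 11664 genes tested. Averaged over both treatments, 4 partner genes passed and were lower after AB, where 3.87% of all genes did so, Nnt at -0.34 (adjusted p 0.0233), Pex6 at -0.37 (adjusted p 0.0288), Pex11a at -0.32 (adjusted p 0.0420), and Me3 at -0.24 (adjusted p 0.0450). None of the 4 passed with the number series as a covariate, without the 3 libraries highest in atrial markers, or without DMSO+Sham 1, hispidulin+Sham 1, hispidulin+AB 1 or hispidulin+AB 3.

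The genes most like each member in pattern were sought among 5359 genes with a mean FPKM of at least 10, by Pearson's r of log2(FPKM + 1) over the 12 libraries. For Sod1 these were Polr3gl (r = 0.95, Spearman's rho = 0.96) and Gstm2 (r = 0.93, rho = 0.96). Abcb10 and Htra1 were nearest to Sod2, Akip1 and Chmp1a to Sod3, and Aifm2 and Sugp1 to Cat. Lclat1 (r = 0.97) and F3 (r = 0.95) were nearest to Prdx3, and Spr and Naa38 to Prdx5, whose highest r, 0.91, was the lowest of the 10. Ifngr1 and Polr1d were nearest to Gpx1, Tgfbr2 and Psmd4 to Gpx3, Igfbp6 and Mrpl20 to Gpx4, and Mrpl28 and Dctpp1 to Txn2. Across these 20 genes r lay between 0.904 and 0.967, and without the 2 libraries farthest from the median of the member it lay between 0.789 and 0.957. The libraries share groups, and a search over so many genes returns high values, so these are descriptions only.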

How the data were processed

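Left ventricular RNA of 12 mice was measured, 3 in each group, with groups taken from the sample titles. The authors deposited FPKM for 18079 genes, rounded to 0.01, from single-end 50-base BGISEQ-500 reads. The submitters' processing notes name HISAT2 2.0.4, Bowtie2 2.2.5, RSEM 1.2.12 and DESeq2 1.4.5, and the genome build is not given in the sources used here. Depth could not be recovered from the steps between low values. Symbols were matched for 17947 genes. Genes that reached an FPKM of 1 in 3 or more libraries (11664) were tested on log2(FPKM + 1), which understates the change of low genes, in R 4.3.3 with limma 3.58.1 (1 mean per group, all libraries, 8 error degrees of freedom, eBayes with trend, two-sided, Benjamini-Hochberg over all genes). The script was tested on simulated data. An exact two-sided permutation test over 3 mice against 3 cannot give a p under 0.1. Sequences were read with Python 3.11.15. The members and gene lists were chosen with earlier results of these data known. 2 partner genes are not reported here and are in none of the list counts. All members were named, and partner genes where they passed or had the 2 largest changes of a list under AB; for likeness, the 2 highest r per member. Residuals of same-numbered libraries correlated by 0.126 to 0.330 between the Sham groups and by 0.148 to 0.228 in hispidulin+AB against hispidulin+Sham, every pair over 0.1, and by -0.198 to -0.0239 and -0.183 to 0.300 in DMSO+AB against DMSO+Sham and hispidulin+AB against DMSO+AB. The replicate number was tried as a block. Other alternatives changed the value added, the filter, the scaling, the weights, the trend, the covariate, the threshold and the libraries.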

Additional observations from a re-analysis of the deposited data

How the results depend on the processing

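Each member count and log2 difference was recomputed under the alternatives, 1 change at a time. The counts of members and of partner genes past the threshold stayed at 0 in both hispidulin comparisons, in hispidulin+AB against hispidulin+Sham and in the interaction. Between DMSO+AB and DMSO+Sham the member count was 1 with library weights (Gpx1) and 0 to 3 when 1 library was left out, the 3 being without DMSO+AB 1. The partner count there was 1 with median-of-ratios scaling, 6 with library weights, 0 with the study criteria (adjusted p at or under 0.001, log2 change at or over 1), the number series as a covariate, only the libraries compared, or without the 3 libraries highest in atrial markers, and 0 to 4 when 1 library was left out. Averaged over both treatments, the member count was 1 with quantile normalization (Sod1), 2 with library weights (Sod1 and Gpx1) and 0 to 3 when 1 library was left out. The partner count was then 1 with median-of-ratios scaling, 12 with library weights, 0 with the study criteria, the number series or without the atrial libraries, and 0 to 5 when 1 library was left out. With the replicate block, the pairing left the member counts at 0 and the partner count at 3 between DMSO+AB and DMSO+Sham, where same-numbered libraries did not deviate together, and 5 averaged over both treatments, and it changed no other member or partner count. Over all genes, the calls between DMSO+AB and DMSO+Sham were 608, against 11 with only the libraries compared, 20 without the atrial libraries, 145 with the number series, 383 without a filter, 1423 with library weights and 91 (without DMSO+Sham 1) to 1050 (without DMSO+Sham 2) when 1 library was left out. Between hispidulin+AB and hispidulin+Sham they were 0, against 17 with the replicate block, 51 with only the libraries compared and 209 with library weights, and between hispidulin+AB and DMSO+AB 0, against 20 without DMSO+AB 1. Averaged over both treatments they were 862, against 73 without the atrial libraries, 547 with the number series, 2535 with library weights and 373 (without hispidulin+AB 3) to 1210 (without DMSO+Sham 2) when 1 library was left out. No scaling moved the median of all genes by over 0.1. The causes were not tested.

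None of the differences that changed sign had passed. With library weights Gpx3 and Txn2 were 0.10 and -0.015 between DMSO+AB and DMSO+Sham, Prdx5 was 0.028 between hispidulin+AB and DMSO+AB, Txn2 and Prdx5 were 0.0014 and 0.0080 between hispidulin+Sham and DMSO+Sham, Sod2 was 0.018 in the interaction and Gpx3 was 0.11 averaged over both treatments. Txn2 was 0.013 averaged over both treatments and 0.0071 between the Sham groups with median-of-ratios scaling. With quantile normalization Txn2 was -0.023 between DMSO+AB and DMSO+Sham, and Txn2, Sod1 and Prdx3 were 0.021, -0.0012 and -0.0052 between the Sham groups. With the number series Gpx3 was -0.12 between hispidulin+AB and hispidulin+Sham, and Txn2 was 0.010 averaged over both treatments. Without the atrial libraries Prdx5 and Txn2 were 0.0092 and 0.042 between the Sham groups, Prdx5, Sod3 and Sod2 were 0.034, 0.027 and -0.0032 between hispidulin+AB and DMSO+AB, Gpx1 was 0.063 in the interaction and Txn2 was 0.023 averaged over both treatments.

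When 1 library was left out, the ranges that crossed 0 were, between DMSO+AB and DMSO+Sham, -0.61 to 0.41 for Gpx3 and -0.032 to 0.066 for Txn2. Between hispidulin+AB and DMSO+AB they were -0.039 to 0.062 for Sod2, -0.42 to 0.018 for Sod3, -0.12 to 0.027 for Cat, -0.085 to 0.052 for Prdx5 and -0.11 to 0.014 for Txn2. Between hispidulin+Sham and DMSO+Sham they were -0.074 to 0.085 for Sod1, -0.058 to 0.17 for Sod2, -0.24 to 0.054 for Cat, -0.013 to 0.053 for Prdx3, -0.080 to 0.0092 for Prdx5, -0.22 to 0.066 for Gpx1, -0.93 to 0.086 for Gpx3 and -0.052 to 0.042 for Txn2. Between hispidulin+AB and hispidulin+Sham they were -0.12 to 0.017 for Prdx5, -0.15 to 0.22 for Gpx3, -0.00094 to 0.15 for Gpx4 and -0.085 to 0.041 for Txn2. In the interaction they were -0.16 to 0.073 for Sod2, -0.097 to 0.20 for Cat, -0.040 to 0.096 for Prdx5, -0.38 to 0.64 for Gpx3 and -0.11 to 0.015 for Txn2. Averaged over both treatments they were -0.29 to 0.22 for Gpx3 and -0.037 to 0.033 for Txn2. Sod1, Sod2, Cat, Prdx3 and Prdx5 stayed lower and Gpx1, Gpx4 and Sod3 higher under every alternative run. This held between DMSO+AB and DMSO+Sham and averaged over both treatments. Ranges that did not cross 0 could still be wide, as for Cat (-0.33 to -0.038) and Sod2 (-0.25 to -0.023) between DMSO+AB and DMSO+Sham. The depth of the libraries is unknown, and 3 mice per group limit what these intervals can show.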
